A study of Mus musculus with 16 samples.

Results

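The 10 genes described here encode receptors, bridging molecules and opsonins of efferocytosis, the removal of dying cells by phagocytes: Mertk, Axl, Gas6, Pros1, Mfge8, C1qa, C1qb, C1qc, Trem2 and Tyrobp. They were chosen by name, as the rows of the count table that carry these symbols, and make up 10 of the 22287 genes listed, of which all 10 were tested after the filter on low counts. The study grew bone marrow-derived macrophages (BMDMs) of male C57BL/6J mice, 8 weeks old by the labels, for 7 days with GM-CSF (GM) or M-CSF (M), on plastic treated for tissue culture (TC) or left untreated (noTC). Cells were read out at steady state (vehicle) or after 3 h with lipopolysaccharide (LPS), which gives 8 groups of 2 RNA-seq libraries, named by growth factor and dish (such as GM-TC or M-noTC), with -LPS added where LPS was given. The GM cultures were seeded more densely than the M cultures and received another concentration of growth factor, so that seeding density and growth factor cannot be told apart. The labels do not say whether the libraries of a group came from separate mice, and the study calls them biological replicates without saying what was replicated, so the p-values below measure the spread between these libraries, whatever its source.

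MERTK and AXL, with TYRO3, form the TAM family of receptor tyrosine kinases, which do not bind the phosphatidylserine exposed on a dying cell directly but through the secreted proteins GAS6 and protein S (encoded by Pros1). GAS6 binds both receptors, while protein S acts on MERTK and not on AXL. MFG-E8 is another secreted bridge, between phosphatidylserine and integrins of the phagocyte, and C1q, the first component of the classical complement pathway, is built from chains encoded by C1qa, C1qb and C1qc and opsonises dying cells. TREM2 is a lipid-sensing receptor of macrophages and microglia that signals through the adaptor DAP12, encoded by Tyrobp.

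In the GENCODE annotation of the mouse assembly GRCm38, matched by Ensembl gene number, the C1q genes lie side by side on the minus strand of chromosome 4, with C1qb at chr4:136880129-136886187, C1qc at chr4:136889804-136893065 and C1qa at chr4:136895917-136898803. Mertk lies at chr2:128698956-128802894, Axl at chr7:25757273-25788705, Gas6 at chr8:13465374-13494490 and Mfge8 at chr7:79133768-79149060. Exons of 9 of the 10 genes overlap no other annotated gene, and those of Gas6 share 34 bases with Tmem255b on the opposite strand, which stayed at or under 0.0374 CPM in every library.

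Sequences upstream of the RefSeq start sites on GRCm38.p6 were matched by symbol for 8 of the 10 genes, all but C1qa and Tyrobp. The sequences below belong to members that differed most between the growth factors on TC dishes at steady state, among those with a sequence, and are shown 5′ to 3′ on the strand of the gene, as the 250 bases before the start (for C1qc, the 99 of them that lie outside annotated exons). Gas6, C1qb and C1qc were higher in M, and Axl and Mfge8 higher in GM. Capitals mark GAGGAA, the core bound by PU.1, or TGCTGA, a core piece of the site of Maf factors, on either strand.
Gas6, chr8:13494536-13494785, minus strand: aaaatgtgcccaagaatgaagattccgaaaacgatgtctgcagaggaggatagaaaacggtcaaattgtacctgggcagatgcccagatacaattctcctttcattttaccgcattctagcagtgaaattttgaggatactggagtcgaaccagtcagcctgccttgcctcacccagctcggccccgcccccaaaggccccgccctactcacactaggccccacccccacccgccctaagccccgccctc
C1qb, chr4:136886201-136886450, minus strand: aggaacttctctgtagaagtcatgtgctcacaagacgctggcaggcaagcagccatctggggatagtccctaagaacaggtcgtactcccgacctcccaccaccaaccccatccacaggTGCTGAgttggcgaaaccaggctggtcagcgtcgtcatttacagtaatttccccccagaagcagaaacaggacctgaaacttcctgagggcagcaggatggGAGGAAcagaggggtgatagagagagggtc
C1qc, chr4:136893066-136893164, minus strand: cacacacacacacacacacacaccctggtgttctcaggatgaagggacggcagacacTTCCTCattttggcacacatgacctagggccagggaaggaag
Axl, chr7:25788734-25788983, minus strand: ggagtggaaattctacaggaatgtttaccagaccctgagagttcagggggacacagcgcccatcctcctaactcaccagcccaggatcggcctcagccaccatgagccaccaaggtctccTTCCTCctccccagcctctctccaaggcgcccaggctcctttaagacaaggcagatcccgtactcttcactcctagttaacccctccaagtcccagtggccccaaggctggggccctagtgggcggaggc
Mfge8, chr7:79149061-79149310, minus strand: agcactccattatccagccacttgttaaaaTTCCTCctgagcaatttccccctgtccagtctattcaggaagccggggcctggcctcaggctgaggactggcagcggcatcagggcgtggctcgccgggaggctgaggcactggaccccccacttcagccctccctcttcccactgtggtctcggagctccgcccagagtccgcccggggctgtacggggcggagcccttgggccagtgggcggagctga
GAGGAA occurred before the start of 5 of the 8 genes, namely Axl, Mfge8, C1qb, C1qc and Trem2, and in 23.3% of the 32817 promoters of the same length in the reference. It was thus found upstream of genes of both directions. TGCTGA occurred before C1qb alone among the 8 and in 16.1% of all promoters. The AP-1 letters TGANTCA occurred before Trem2 alone (6.75% of all promoters), the letters TTCNNNGAA of the GAS motif before Pros1 alone (7.01%) and CCAAT before Trem2 alone (33.8%). The letters GAAANNGAA, the core of the interferon response motif (7.12%), and CACGTG, the E-box (6.02%), occurred before none of the 8. Both strands were searched, and none of the matches named overlap each other. A match of letters describes these windows and says nothing of binding.

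The libraries held 17527802 to 31458363 counts. Levels of the members and pathway genes are given as CPM (a gene's counts scaled to a common library total) after scaling by TMM. TMM sets the libraries so that most genes have similar levels. Its factors were 1.11 to 1.39 at steady state and 0.778 to 0.842 after LPS. The marker values in this paragraph, the share read from noTC libraries and the CPM of 3 counts are by library totals, without TMM. Marker values at steady state and after LPS are thus not on the scale of the other levels. All 8 macrophage markers examined (Adgre1, Csf1r, Cd68, Itgam, Lyz2, Fcgr1, Cd14 and Mrc1) were above 10 CPM in every library. The 8 dendritic cell markers summed to 1122 to 2293 CPM in the GM libraries, mostly Itgax and Ccl22, and to 22.4 to 122 CPM in the M libraries, and 9 neutrophil markers to 14.4 to 35.5 CPM and at most 1.73 CPM. Of the dendritic cell markers, 3 or 4 of 8 were above 10 CPM in both libraries of each GM group and 1 or 2 in those of each M group. Clec9a, a defining dendritic cell gene, was at 35.2 CPM in GM-TC and 34.1 CPM in GM-noTC against 0.345 and 0.574 CPM in M on the same dishes. In the same order Ccr7 was at 10.5 and 10.1 CPM against 0.0521 and 0.322 CPM, and Xcr1 at 0.242 and 0.508 CPM against 0.269 and 0.150 CPM. After LPS, Xcr1 was at 1.68 and 2.30 CPM in GM against 1.68 and 2.34 CPM in M. Zbtb46 and Cd209a had group means up to 6.13 and 5.97 CPM in GM and up to 0.511 and 0.293 CPM in M. Flt3 was near 0 throughout (group means up to 0.329 CPM). Of the 9 neutrophil markers 0 were above 10 CPM in both libraries of any group. Ngp had means of 7.13 to 11.8 CPM in GM groups and at most 0.236 CPM in M groups, Ly6g was at most 0.104 CPM, and Ly6g, Retnlg, Mpo and Elane were at 0 in all M libraries. In bulk RNA, fewer cells of a type and less RNA per cell cannot be told apart, and the part of these cells in the differences between GM and M was not tested. The 4 steady-state libraries from TC dishes stand apart in holding 7 heart muscle genes at a sum of 23.3 to 81.3 CPM, against at most 0.633 CPM elsewhere. The comparisons of M with GM, of LPS with steady state and of the dishes that rest on those libraries each have a counterpart that does not, on noTC dishes or after LPS, and both are given; the difference of the LPS response between dishes has none. The 4 steady-state libraries from noTC dishes held low levels of transcripts that were under 1 CPM in the 4 steady-state TC libraries. For GM and for M these were read from 7 genes with a mean of at least 100 CPM in the other libraries. Those other libraries include the LPS-treated ones from TC dishes. The excess over the TC libraries had a median of 0.675% (GM) and 0.573% (M) of that mean, and its origin was not tested. After subtraction of that share of the mean, 1 of 180 values of the 10 genes changed its side of the threshold, that of Gas6 after LPS in GM-noTC.

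The first question of the design is how the growth factor sets these genes. In each of the 4 comparisons of M with GM, on either dish and with or without LPS, 5 of the 10 genes were higher in M (Gas6, C1qa, C1qb, C1qc and Trem2) and 5 were lower (Mertk, Axl, Pros1, Mfge8 and Tyrobp), all past the threshold of an adjusted p of 0.05 in edgeR's quasi-likelihood test. Among all 12514 genes tested, 28.9% were higher and 32.6% lower in M on TC dishes at steady state, 30.7% and 31.4% on noTC dishes, 32.9% and 33.9% on TC dishes after LPS, and 32.6% and 33.5% on noTC dishes after LPS. The median log2 fold change of the 10 genes was 0.07, 0.19, 0.23 and 0.18 in that order, beside -0.02, 0, -0.03 and -0.02 over all genes tested. Both TAM receptors were thus lower, and their ligand Gas6 higher, in M cells. The 4 comparisons each use their own libraries, and none of the 10 genes changed direction in any of them when libraries were scaled by their totals alone, which put the median of all genes at 0.29 at steady state on both dishes.

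**Figure D1:**
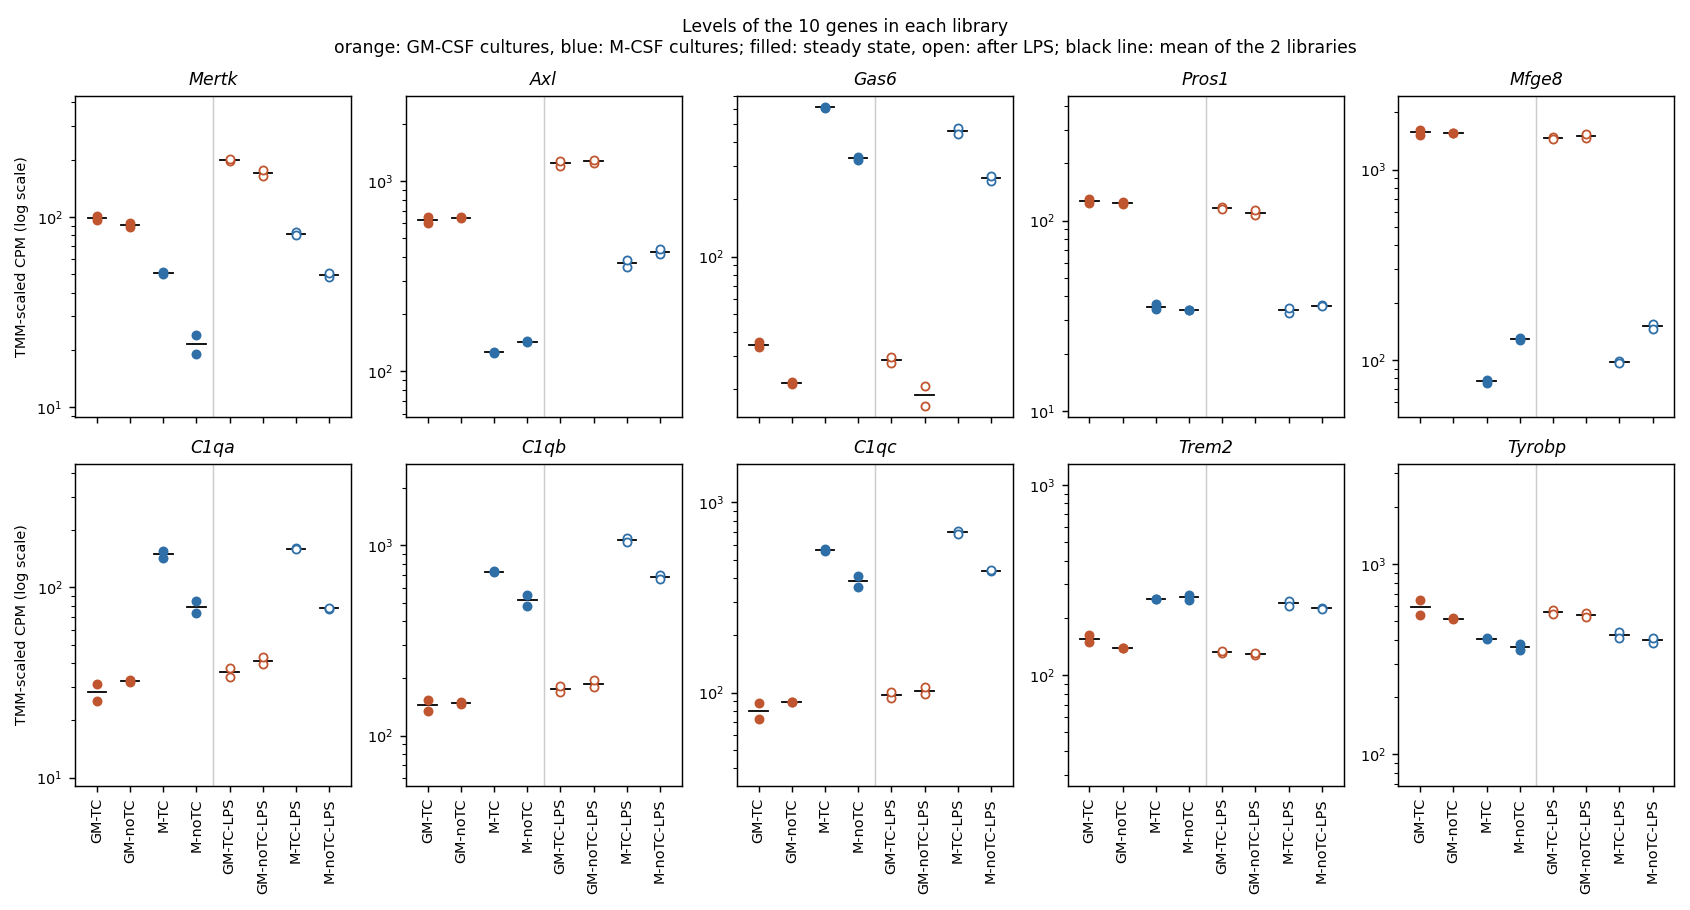
Level of each gene in every library (y axis, TMM-scaled CPM on a log scale spanning the same ratio in each panel; x axis, the 8 groups; points, libraries; line, mean of 2). Gas6, the C1q genes and Trem2 sit higher in M (blue) and the other 5 in GM (orange) in all 4 pairs of groups, with Mfge8 at 1569 CPM in GM-TC and 77.1 CPM in M-TC.

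Mertk stood at 101 and 95.9 CPM in the GM-TC libraries and 93.0 and 88.2 CPM in GM-noTC. In the M libraries it was 51.2 and 49.9 CPM on TC and 19.0 and 23.9 CPM on noTC dishes. No M library reached a GM library of the same dish, and M-noTC had the lowest levels of all 8 groups. Mertk was 1.95-fold lower in M than in GM on TC dishes (log2 fold change -0.96 ± 0.0739 (SE), adjusted p = 1.5e-10) and 4.19-fold lower on noTC dishes (log2 fold change -2.07 ± 0.0776 (SE), adjusted p = 4.42e-16). After LPS, Mertk was 197 and 203 CPM in GM-TC-LPS and 83.2 and 80.0 CPM in M-TC-LPS. On noTC dishes the values were 165 and 176 CPM in GM and 48.4 and 50.8 CPM in M. The gap after LPS was 2.45-fold on TC and 3.43-fold on noTC dishes (adjusted p = 4.96e-13 and 3.58e-15). In the order of its 8 group means, from GM-TC-LPS down to M-noTC, the libraries of M-TC and M-noTC-LPS were the only neighbours to overlap.

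Axl, the other receptor of the pair, was also lower in M. It was 646 and 602 CPM in GM-TC and 644 and 638 CPM in GM-noTC. The M libraries held 125 and 127 CPM on TC and 145 and 142 CPM on noTC dishes. GM and M did not overlap, while the dishes did within GM. Axl was 4.96-fold lower in M on TC (log2 fold change -2.31 ± 0.0564 (SE), adjusted p = 2.13e-19) and 4.47-fold lower on noTC dishes (log2 fold change -2.16 ± 0.0555 (SE), adjusted p = 5.17e-19). After LPS it was 1242 ± 50.1 CPM (SD, n = 2) in GM-TC-LPS against 369 ± 21.9 CPM in M-TC-LPS, and 1271 ± 31.9 CPM in GM-noTC-LPS against 426 ± 19.3 CPM in M-noTC-LPS, folds of 3.36 and 2.99. Per kilobase of the principal transcript, the level of Axl exceeded that of Mertk 6.38 ± 0.0691-fold (SD, n = 2) in GM-TC and 7.15 ± 0.221-fold in GM-noTC. In M the ratio was 2.51 ± 0.0657 on TC and 6.84 ± 1.19 on noTC dishes. Axl was thus above Mertk per kilobase throughout, and Mertk came closest to it in M-TC, at 28.5 ± 0.532% of both together per kilobase, against 10.4% to 18.0% in the other 7 groups.

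Gas6, the shared ligand of the TAM receptors, was the member with the largest rise in M. The GM libraries held 35.6 and 33.3 CPM on TC and 21.9 and 21.4 CPM on noTC dishes. In M cells Gas6 was 606 and 615 CPM on TC and 322 and 335 CPM on noTC dishes. All M libraries were far above all GM libraries, also after LPS, when M-TC-LPS held 475 and 443 CPM and GM-TC-LPS 27.7 and 29.8 CPM. Gas6 was 17.8-fold higher in M on TC (log2 fold change 4.15 ± 0.0764 (SE), adjusted p = 1.77e-21) and 15.2-fold higher on noTC dishes (log2 fold change 3.92 ± 0.0778 (SE), adjusted p = 6.1e-21). The fold was 15.98 on TC and 13.9 on noTC dishes after LPS. No neighbours in the order of its 8 group means overlapped.

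Pros1, which encodes the other TAM ligand, went the opposite way. In GM it was 124 and 129.7 CPM on TC and 126 and 122 CPM on noTC dishes. The M libraries held 34.3 and 36.3 CPM on TC and 33.9 and 34.0 CPM on noTC dishes. Every M library was below every GM library, while the M groups were close to each other throughout (33.7 to 35.7 CPM over their 4 means). Pros1 was 3.59-fold lower in M on TC (log2 fold change -1.84 ± 0.0595 (SE), adjusted p = 3e-17) and 3.64-fold lower on noTC dishes (log2 fold change -1.86 ± 0.0581 (SE), adjusted p = 1.64e-17), and 3.46-fold and 3.09-fold lower after LPS. Gas6 thus made up 26.0 ± 1.53% (SD, n = 2) of both ligand transcripts per kilobase in GM on TC and 18.5 ± 0.0514% on noTC dishes, but 95.7 ± 0.127% in M-TC and 92.6 ± 0.173% in M-noTC.

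Mfge8, the integrin bridge, showed the largest fall in M. It was 1515 and 1624 CPM in GM-TC and 1556 and 1559 CPM in GM-noTC. M-TC held 78.7 and 75.6 CPM and M-noTC 131 and 127 CPM. Over all 16 libraries, the lowest value in GM was 1443 CPM and the highest in M 154 CPM. The difference was 20.4-fold on TC (log2 fold change -4.35 ± 0.0570 (SE), adjusted p = 6.81e-24) and 12.1-fold on noTC dishes (log2 fold change -3.59 ± 0.0543 (SE), adjusted p = 8.99e-23). After LPS it was 15.0-fold on TC and 10.03-fold on noTC dishes. Per kilobase, Mfge8 was at 739 CPM in GM-TC beside 13.5 CPM for Gas6, and at 36.3 CPM in M-TC beside 239.6 CPM for Gas6, so that the more abundant of these bridging transcripts differed between GM and M.

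**Figure D2:**
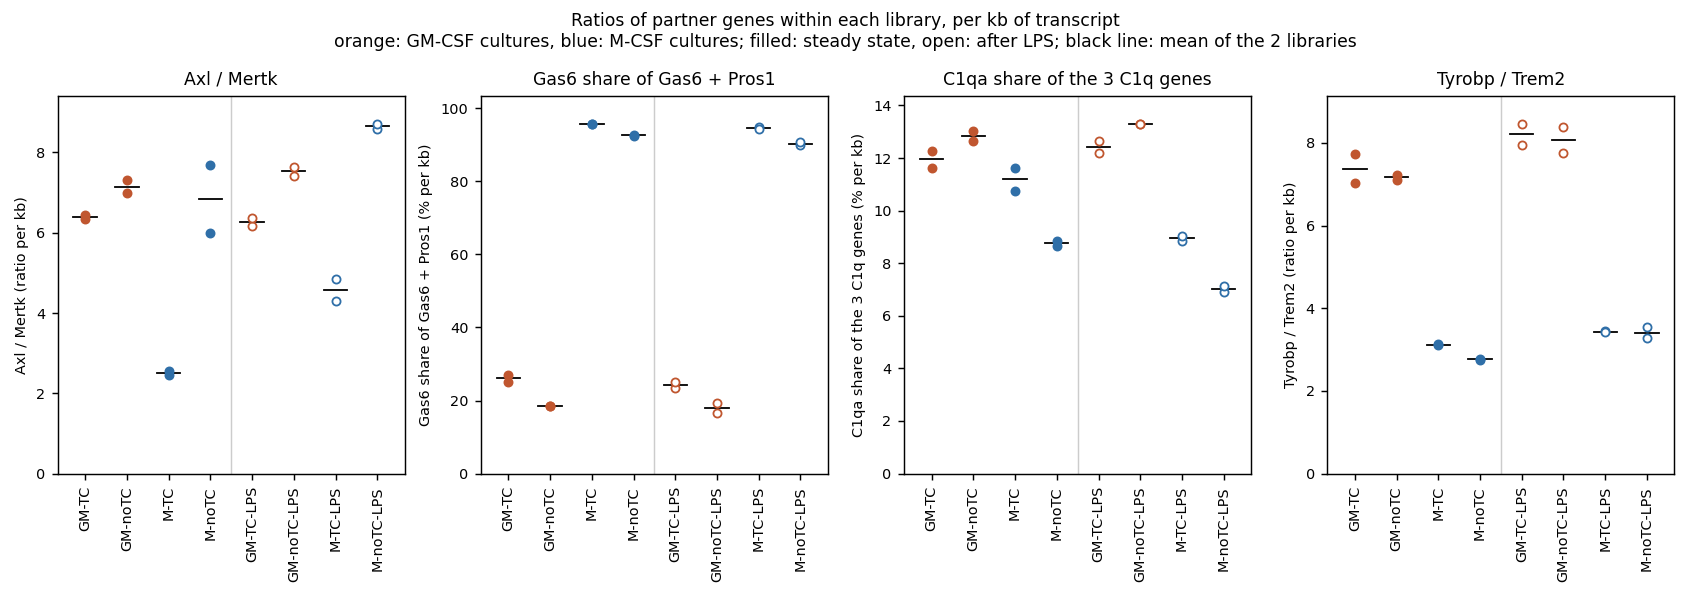
Ratios of partner genes within each library (y axes, per kilobase of principal transcript; x axis, the 8 groups; points, libraries; line, mean of 2). Group means of the Gas6 share of TAM ligand transcripts are 90.4% to 95.7% in M and 17.9% to 26.0% in GM, and Tyrobp over Trem2 is 2.76 to 3.44 in M and 7.17 to 8.21 in GM.

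The C1q genes were higher in M cells as a set. C1qa was 25.1 and 31.2 CPM in GM-TC and 32.7 and 31.9 CPM in GM-noTC. In M it was 143 and 155 CPM on TC and 73.1 and 85.3 CPM on noTC dishes. M libraries lay above GM libraries in both dishes, and on TC dishes further above. C1qb ranged over 134 and 154 CPM in GM-TC and 147 and 150.0 CPM in GM-noTC. It reached 726 and 730.3 CPM in M-TC and 479 and 549 CPM in M-noTC. C1qc showed the widest gap of the trio, with 72.7 and 88.1 CPM in GM-TC and 567 and 557 CPM in M-TC, and with 89.7 and 89.5 CPM in GM-noTC and 361 and 411 CPM in M-noTC. On TC dishes the folds over GM were 5.26 for C1qa (log2 fold change 2.39 ± 0.0877 (SE), adjusted p = 3.02e-16), 5.05 for C1qb (log2 fold change 2.34 ± 0.0699 (SE), adjusted p = 7.67e-18) and 6.98 for C1qc (log2 fold change 2.80 ± 0.0758 (SE), adjusted p = 1.32e-18). On noTC dishes they were 2.46, 3.46 and 4.31 (adjusted p = 9.38e-12, 6.19e-16 and 1.23e-16). After LPS the folds were 4.46, 6.07 and 7.18 on TC dishes and 1.89, 3.62 and 4.27 on noTC dishes, in the same order.

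The chains of C1q assemble in equal numbers, but their transcripts were not equal. Per kilobase, C1qa made up 11.9 ± 0.458% (SD, n = 2) of the C1q transcripts in GM-TC and 12.8 ± 0.271% in GM-noTC. Its share in M was 11.2 ± 0.619% on TC and 8.75 ± 0.118% on noTC dishes at steady state, and 8.95 ± 0.139% and 7.01 ± 0.155% after LPS. C1qa was thus the least abundant of the chains in all 8 groups, and its share was lowest in M-noTC-LPS. The share of C1qb was 52.3% to 58.7% over the group means and that of C1qc 28.7% to 36.9%. Over the 8 group means of log2 CPM, C1qb and C1qc went together at a Pearson r of 0.996, C1qa and C1qb at 0.969 and C1qa and C1qc at 0.972, a description over 8 groups that share libraries and scaling.

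Trem2 and its adaptor moved in opposite directions, with the smallest log2 fold changes of the 10 genes. Trem2 was 149 and 162 CPM in GM-TC and 139.7 and 139 CPM in GM-noTC. It was 251 and 252 CPM in M-TC and 248 and 265 CPM in M-noTC. The M libraries were all above the GM libraries, with M-TC and M-noTC overlapping. Trem2 was 1.61-fold higher in M on TC (log2 fold change 0.69 ± 0.0535 (SE), adjusted p = 1.78e-10) and 1.84-fold higher on noTC dishes (log2 fold change 0.88 ± 0.0532 (SE), adjusted p = 2.26e-12), and 1.81-fold and 1.74-fold higher after LPS. Tyrobp was 542 and 651 CPM in GM-TC, a wide pair, and 514 and 522 CPM in GM-noTC. The M libraries held 404 and 408 CPM on TC and 354 and 381 CPM on noTC dishes. All M libraries were below all GM libraries at steady state, by 1.47-fold on TC (log2 fold change -0.55 ± 0.0666 (SE), adjusted p = 2.26e-07) and 1.41-fold on noTC dishes (log2 fold change -0.49 ± 0.0664 (SE), adjusted p = 1.06e-06). After LPS the folds were 1.32 and 1.36. Per kilobase, Tyrobp exceeded Trem2 7.37 ± 0.498-fold (SD, n = 2) and 7.17 ± 0.0909-fold on TC and noTC dishes in GM, and 3.12 ± 0.0145-fold in M-TC and 2.76 ± 0.0149-fold in M-noTC.

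**Figure D3:**
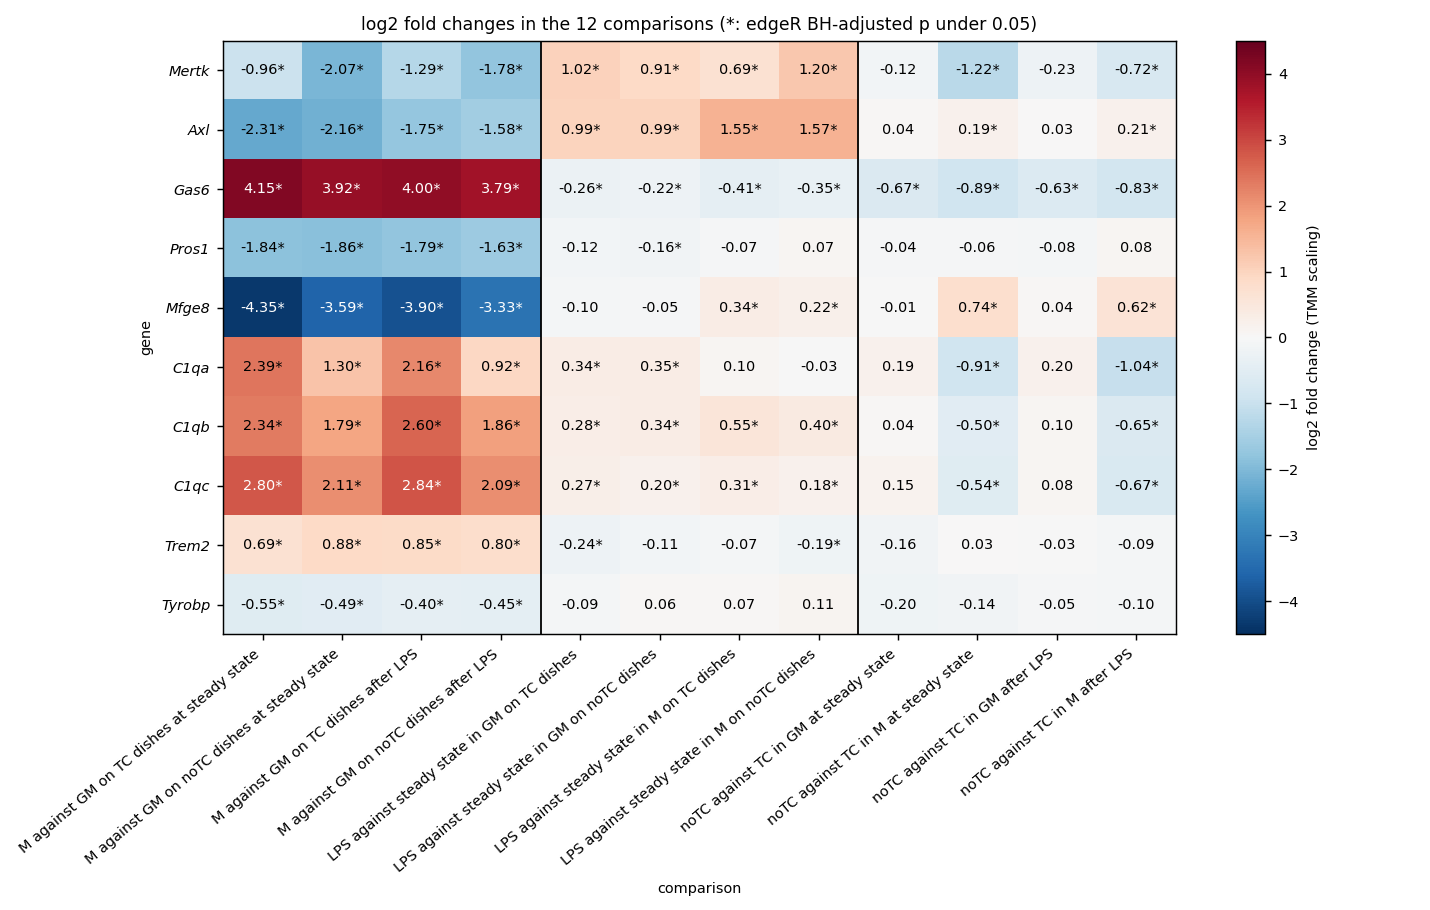
log2 fold change of each gene (rows) in the 12 comparisons (columns) of growth factor, LPS and dish under TMM scaling, with colour and printed value for size and a star for an edgeR adjusted p under 0.05. The 4 columns of M against GM hold the largest values, from -4.35 for Mfge8 to 4.15 for Gas6, and the dish columns are near 0 in GM except for Gas6.

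The second question is what 3 h of LPS did to these genes. Of the 10 genes, 5 rose and 2 fell in GM on TC dishes (32.8% and 34.2% of all genes tested), 5 rose and 2 fell in GM on noTC dishes (33.6% and 34.0%), 5 rose and 1 fell in M-TC (37.6% and 36.4%), and 5 rose and 2 fell in M-noTC (36.4% and 35.9%). The directions depend on the scaling for several members, since scaling by library totals alone put the median of all genes at -0.53 (TC) and -0.54 (noTC) in GM and at -0.83 (TC) and -0.73 (noTC) in M on the log2 scale, against -0.05 to -0.01 under TMM. By library totals the split of the 10 genes was in GM 2 higher and 7 lower (17.2% and 62.7% of all genes) for TC dishes and 2 higher and 7 lower (16.4% and 63.8% of all genes) for noTC dishes, and in M 1 higher and 8 lower (16.3% and 69.1% of all genes) for TC dishes and 2 higher and 8 lower (16.1% and 68.5% of all genes) for noTC dishes. Axl rose, and Gas6 and Trem2 had negative values, in all 4 comparisons under both scalings, and Mertk rose under both in all but M-TC.

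Under TMM, Axl had the largest response in M, and in GM one close to that of Mertk. It went from 646 and 602 to 1206 and 1277 CPM in GM-TC, and from 125 and 127 to 354 and 385 CPM in M-TC. On noTC dishes it went from 644 and 638 to 1249 and 1294 CPM in GM and from 145 and 142 to 412 and 439 CPM in M. No treated library overlapped its untreated counterparts. The rise was 1.99-fold in GM-TC (adjusted p = 1.9e-13) and 1.98-fold on noTC dishes (adjusted p = 2.02e-13). In M it was 2.93-fold on TC dishes (adjusted p = 7.93e-17) and 2.97-fold on noTC dishes (adjusted p = 5.52e-17). By library totals the log2 fold changes were 0.51, 0.48, 0.73 and 0.84, smaller but still past the threshold, and in M smaller in size than those of Gas6 (-1.24 on TC and -1.07 on noTC dishes).

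Mertk rose 2.03-fold in GM-TC (log2 fold change 1.02 ± 0.0702 (SE), adjusted p = 1.8e-11) and 1.88-fold in GM-noTC (log2 fold change 0.91 ± 0.0701 (SE), adjusted p = 1.22e-10). In M-noTC it rose 2.30-fold (log2 fold change 1.20 ± 0.0813 (SE), adjusted p = 1e-11). In M-TC it rose 1.62-fold under TMM (log2 fold change 0.69 ± 0.0752 (SE), adjusted p = 2.76e-08), but its value turned to -0.13 by library totals (adjusted p = 0.0993). Mertk stood at its highest, 197 and 203 CPM, in GM-TC-LPS.

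Gas6 fell by 0.41 on the log2 scale in M-TC (606 and 615 CPM before and 475 and 443 CPM after, adjusted p = 5.19e-06) and by 0.35 in M-noTC (322 and 335 CPM before and 249.8 and 266 CPM after, adjusted p = 5.04e-05). In GM-TC it fell by 0.26 (adjusted p = 0.00948) and in GM-noTC by 0.22 (adjusted p = 0.0399), and single libraries decide both calls. Without GM-TC replicate 1 the GM-TC value was -0.20 at an adjusted p of 0.0724, and without GM-TC-LPS replicate 1 it was -0.21 at an adjusted p of 0.0914. Without GM-noTC replicate 1 the GM-noTC value was -0.18 at an adjusted p of 0.195, without GM-noTC replicate 2 it was -0.22 at an adjusted p of 0.116, and without GM-noTC-LPS replicate 1 it was -0.05 at an adjusted p of 0.656. After the subtraction from noTC libraries the GM-noTC value was -0.13 (adjusted p = 0.203), and with only the libraries compared it was -0.22 (adjusted p = 0.0565). In M the fall passed without any 1 library.

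Without GM-TC replicate 1, Mfge8 in GM-TC was -0.14 at an adjusted p of 0.0159 and Pros1 -0.14 at an adjusted p of 0.0465. With all libraries and TMM, Pros1 passed the threshold in GM-noTC alone, at -0.16 (adjusted p = 0.0128), a call lost without either GM-noTC library (-0.12 at an adjusted p of 0.162 without replicate 1, -0.16 at an adjusted p of 0.0522 without replicate 2) or without GM-noTC-LPS replicate 1 (-0.12 at an adjusted p of 0.137), and by library totals it fell in all 4 cultures, at -0.60 and -0.67 in GM and -0.90 and -0.65 in M (TC, then noTC), where TMM gave -0.07 and 0.07. The Pros1 call in GM-noTC was also lost without a filter (-0.14, adjusted p = 0.0702). Mfge8 was -0.10 in GM-TC and -0.05 in GM-noTC, neither past the threshold under TMM (SE 0.0486 and 0.0485), and it fell in both by library totals (-0.58 and -0.56). In M it rose under TMM by 0.34 on TC (adjusted p = 7.42e-06) and 0.22 on noTC dishes (adjusted p = 0.000723), and by library totals it fell, at -0.48 and -0.51.

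Under TMM the C1q genes had values of at most 0.55 on the log2 scale after LPS, 10 of 12 past the threshold, and by library totals all 12 were negative. C1qb was at 0.55 in M-TC (adjusted p = 1.17e-07) and 0.40 in M-noTC (adjusted p = 1.01e-05), where library totals gave -0.28 and -0.32. In GM it was 0.28 and 0.34 on TC and noTC dishes under TMM and -0.20 and -0.17 by library totals. C1qc was 0.27, 0.20, 0.31 and 0.18 in GM (TC, then noTC) and M (likewise), all past the threshold under TMM, and -0.21, -0.31, -0.51 and -0.54 by library totals. C1qa passed the threshold in GM (0.34 on TC and 0.35 on noTC dishes) but not in M (0.10 and -0.03), and by library totals all 4 values were negative, at -0.14, -0.16, -0.73 and -0.76. The C1qc calls on noTC dishes rest on single libraries. In GM-noTC the value was 0.22 at an adjusted p of 0.0556 without GM-noTC replicate 1, 0.21 at an adjusted p of 0.0625 without replicate 2, and 0.13 at an adjusted p of 0.223 without GM-noTC-LPS replicate 2. In M-noTC it was 0.10 at an adjusted p of 0.27 without M-noTC replicate 1, 0.19 at an adjusted p of 0.0635 without M-noTC-LPS replicate 1, and 0.17 at an adjusted p of 0.0891 without M-noTC-LPS replicate 2. In GM-TC, leaving out GM-TC replicate 1 gave 0.21 at an adjusted p of 0.0581 for C1qa and 0.16 at an adjusted p of 0.0532 for C1qc, and leaving out GM-TC-LPS replicate 2 gave 0.25 at an adjusted p of 0.0716 for C1qa.

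Trem2 fell in GM-TC (log2 fold change -0.24 ± 0.0547 (SE), adjusted p = 0.000608) and in M-noTC (log2 fold change -0.19 ± 0.0526 (SE), adjusted p = 0.00255), the latter not without M-noTC replicate 2 (-0.13 at an adjusted p of 0.0835). In GM-noTC and M-TC its values of -0.11 and -0.07 did not pass under TMM in the fit of all 16 libraries and did, as lower, by library totals (-0.62 and -0.90). With only the libraries compared they also passed, at -0.11 (adjusted p = 0.0319) and -0.13 (adjusted p = 0.0225). Tyrobp passed the threshold in none of the 4 comparisons under TMM, at -0.09 to 0.11, but without GM-TC replicate 1 its value in GM-TC was -0.20 at an adjusted p of 0.00279, and by library totals it fell in all 4, by 0.45 to 0.76.

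**Figure D4:**
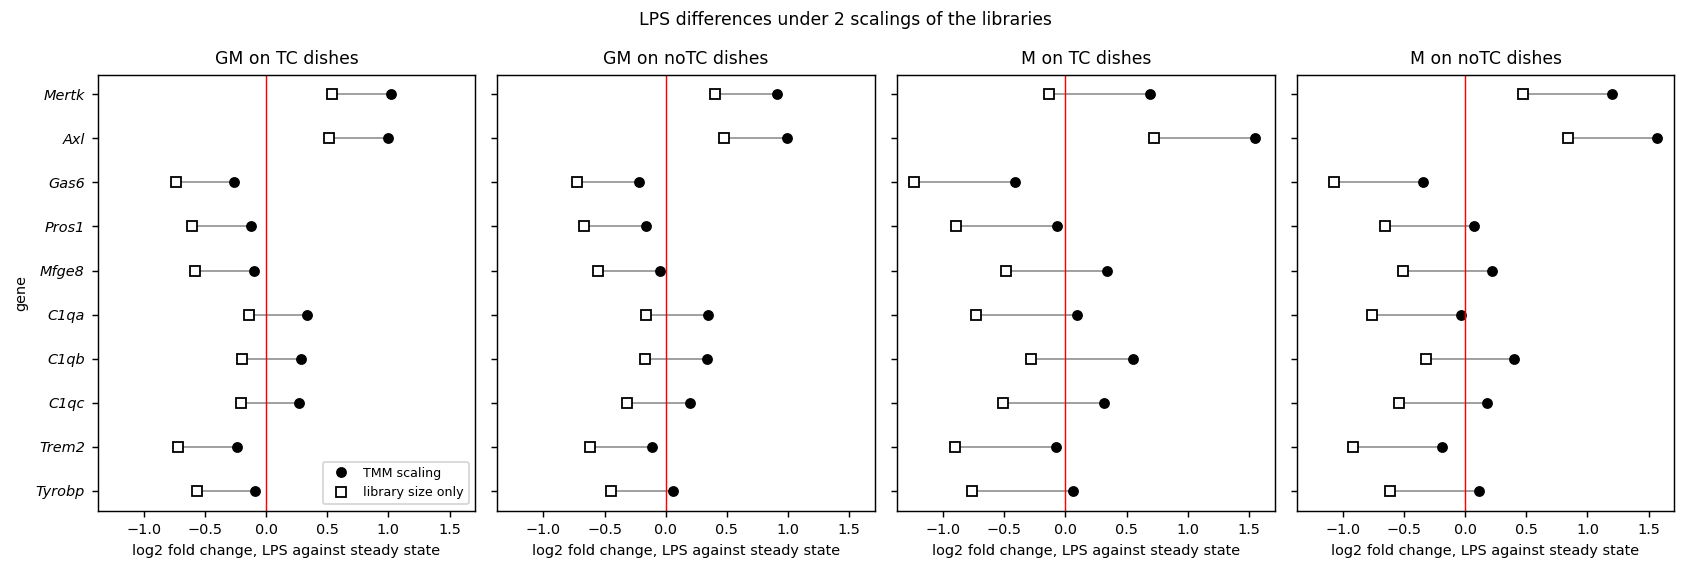
log2 fold change of each gene after LPS (x axis) in the 4 cultures (panels) under TMM scaling (filled circles) and scaling by library totals alone (open squares). Axl stays above 0 and Gas6 and Trem2 below 0 in all panels under both, while the C1q genes cross 0 in GM (0.28 and -0.20 for C1qb in GM-TC).

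The third question is the culture dish. In GM cells 1 of the 10 genes differed between the dishes, Gas6, which was lower on noTC plastic at steady state and after LPS. Among all genes tested, 4.69% were higher and 2.85% lower on noTC dishes in GM at steady state, and 2.08% and 0.727% after LPS. In M cells 7 of the 10 genes passed, 2 higher and 5 lower, at steady state and again after LPS, beside 16.1% higher and 11.1% lower of all genes at steady state and 10.4% and 12.9% after LPS. The genes lower on noTC dishes in M were Mertk, Gas6, C1qa, C1qb and C1qc, and those higher were Axl and Mfge8. The median of the 10 genes in M was -0.32 at steady state and -0.37 after LPS, beside 0.01 and 0.00 over all genes.

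Gas6 fell on noTC dishes in GM from 35.6 and 33.3 to 21.9 and 21.4 CPM (log2 fold change -0.67 ± 0.0838 (SE), adjusted p = 1.24e-05) and in M from 606 and 615 to 322 and 335 CPM (log2 fold change -0.89 ± 0.0637 (SE), adjusted p = 8.34e-10). The dish values did not overlap under either growth factor. After LPS the differences were -0.63 in GM (adjusted p = 0.000179) and -0.83 in M (adjusted p = 6.18e-09). Gas6 was the member lower on noTC dishes in all 4 comparisons.

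Mertk in M was 2.34-fold lower on noTC dishes at steady state (log2 fold change -1.22 ± 0.0795 (SE), adjusted p = 2.2e-10), from 51.2 and 49.9 to 19.0 and 23.9 CPM. After LPS the difference was 1.65-fold (log2 fold change -0.72 ± 0.0769 (SE), adjusted p = 5.12e-07). In GM its values of -0.12 and, after LPS, -0.23 did not pass the threshold (adjusted p = 0.359 and 0.0829), but the value after LPS passed without a filter (-0.22, adjusted p = 0.0239) and with only the libraries compared (-0.24, adjusted p = 0.00623). Axl in M went the other way, by 0.19 at steady state (adjusted p = 0.0141) and 0.21 after LPS (adjusted p = 0.00728). Those small rises rest on having all libraries, since the steady-state call was lost without any 1 of the 4 libraries compared (0.17 at an adjusted p of 0.117 without M-TC replicate 1, 0.19 at an adjusted p of 0.0782 without M-TC replicate 2, 0.17 at an adjusted p of 0.119 without M-noTC replicate 1, 0.20 at an adjusted p of 0.0633 without M-noTC replicate 2) and the call after LPS without M-TC-LPS replicate 1 (0.15 at an adjusted p of 0.117) or M-noTC-LPS replicate 2 (0.16 at an adjusted p of 0.0967).

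C1qa in M was 1.88-fold lower on noTC dishes at steady state (log2 fold change -0.91 ± 0.0779 (SE), adjusted p = 1.29e-08) and 2.06-fold lower after LPS (log2 fold change -1.04 ± 0.0810 (SE), adjusted p = 6.01e-09). C1qb was 1.42-fold and 1.57-fold lower (adjusted p = 4.23e-06 and 2.38e-07), and C1qc 1.46-fold and 1.60-fold lower (adjusted p = 2.89e-06 and 2.91e-07). The TC and noTC libraries of M did not overlap for any of these genes. The C1q counts summed to 1439.7 ± 4.65 CPM (SD, n = 2) in M-TC and 979 ± 93.2 CPM in M-noTC, but to 253 ± 29.0 and 271 ± 1.18 CPM in GM on the same dishes. In GM no C1q gene passed with all libraries (of all 10 genes, 1 passed in edgeR and in DESeq2 and 3 had an unadjusted p under 0.05, in either state), and the largest values were 0.19 at steady state and 0.20 after LPS, both for C1qa (adjusted p = 0.263 and 0.341). The steady-state value of C1qa in GM depended on a library, at 0.36 at an adjusted p of 0.0351 without GM-TC replicate 2, as did that of C1qc, at 0.30 at an adjusted p of 0.0113.

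Mfge8 in M was 1.67-fold higher on noTC dishes at steady state (log2 fold change 0.74 ± 0.0527 (SE), adjusted p = 7.73e-10) and 1.54-fold higher after LPS (log2 fold change 0.62 ± 0.0536 (SE), adjusted p = 3.04e-08). In GM, where Mfge8 is abundant, the values were -0.01 ± 0.0485 and 0.04 ± 0.0486 (SE). Pros1, Trem2 and Tyrobp did not pass in any of the 4 dish comparisons in the fit of all 16 libraries, with values from -0.20 (Tyrobp in GM at steady state) to 0.08 (Pros1 in M after LPS). Leaving out GM-TC replicate 1 brought Trem2 in GM at steady state to -0.22 at an adjusted p of 0.00607 and Tyrobp to -0.33 at an adjusted p of 9.21e-05. Tyrobp also passed in GM at steady state without a filter (-0.20, adjusted p = 0.00607) and in M at steady state with only the libraries compared (-0.16, adjusted p = 0.000752).

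**Figure D5:**
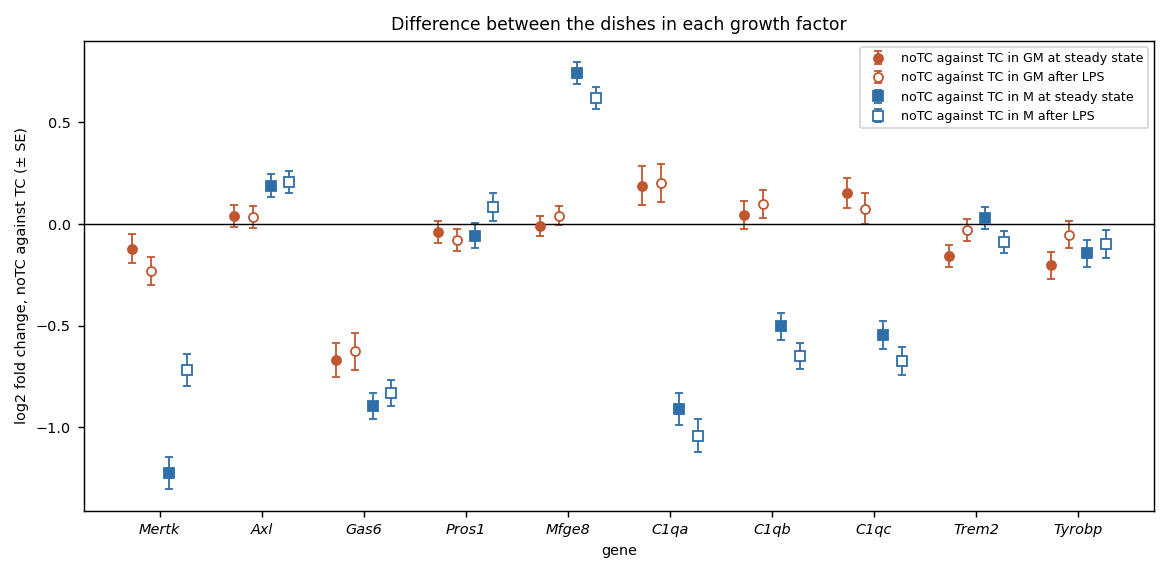
log2 fold change of noTC against TC (y axis, ± SE of the fit) for each gene (x axis) in GM (orange circles) and M (blue squares) at steady state (filled) and after LPS (open). Mertk reaches -1.22 and C1qa -1.04 in M, where the GM values are -0.12 and 0.20, and Gas6 is below 0 in all 4.

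Whether the dish acted differently under the growth factors was tested as the difference of both effects. At steady state, 5 of the 10 genes differed (1 higher and 4 lower in M, beside 6.40% and 4.82% of all genes): Mertk by -1.10 (adjusted p = 3.97e-07), C1qa by -1.10 (2.56e-06), C1qb by -0.55 (0.000474), C1qc by -0.70 (7.79e-05) and Mfge8 by 0.75 (3.05e-07). After LPS the same 5 genes differed in the same directions, with 3.71% and 6.87% of all genes as background, by -0.49, -1.24, -0.74, -0.75 and 0.58 in that order. By library totals Axl (0.28, adjusted p = 0.0153) and Pros1 (0.27, adjusted p = 0.0459) also passed after LPS, beside 7.69% higher and 3.76% lower of all genes. These comparisons after LPS do not use the TC libraries that held heart muscle transcripts. For Gas6 the difference was -0.23 ± 0.105 (SE) at steady state and -0.21 ± 0.111 after LPS, not past the threshold with all libraries; without GM-noTC-LPS replicate 1 the latter was -0.37 at an adjusted p of 0.0373.

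The response to LPS differed between M and GM for 4 genes on TC dishes (3 higher and 1 lower in M, beside 23.3% and 17.8% of all genes) and for 5 on noTC dishes (4 higher and 1 lower, beside 19.3% and 16.9%). Axl rose more in M on both, by 0.56 (adjusted p = 3.2e-06) and 0.58 (adjusted p = 1.91e-06), and by library totals by 0.21 and 0.37, both past the threshold. Mfge8 differed by 0.44 and 0.27 under TMM but by 0.10 and 0.05 by library totals, which did not pass. Mertk differed by -0.33 on TC and 0.29 on noTC dishes, in opposite directions. The noTC difference of Mertk was lost by library totals (0.07, adjusted p = 0.636). C1qb on TC dishes (0.27, adjusted p = 0.0297) turned to -0.081 by library totals, and Pros1 on noTC dishes (0.23, adjusted p = 0.0327) went to 0.02. The C1qa value on TC dishes was -0.24 under TMM, which did not pass, and -0.59 by library totals. C1qa on noTC dishes had the lower response in M, by -0.38 (adjusted p = 0.0175) and -0.60 by library totals. Apart from those of Axl and Mfge8, each of these calls was lost on leaving out at least 1 library: Mertk on TC dishes had -0.31 at an adjusted p of 0.0505 without GM-TC-LPS replicate 2 and -0.30 at an adjusted p of 0.0539 without M-TC-LPS replicate 2. Mertk on noTC dishes was lost without any 1 library other than M-noTC replicate 2 or GM-noTC-LPS replicate 2, with values down to 0.13 at an adjusted p of 0.376 without M-noTC replicate 1. Pros1 was lost without any 1 library other than GM-noTC-LPS replicate 2, with values down to 0.19 at an adjusted p of 0.131 without GM-noTC-LPS replicate 1. C1qb was lost without GM-TC replicate 2 (0.16 at an adjusted p of 0.152), GM-TC-LPS replicate 1 (0.22 at an adjusted p of 0.134), either M-TC library (0.25 at an adjusted p of 0.0927; 0.26 at an adjusted p of 0.0795) or M-TC-LPS replicate 1 (0.24 at an adjusted p of 0.0996). C1qa was lost without GM-noTC replicate 2 (-0.37 at an adjusted p of 0.0581), GM-noTC-LPS replicate 2 (-0.32 at an adjusted p of 0.0934) or M-noTC replicate 2 (-0.27 at an adjusted p of 0.121).

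Without GM-TC replicate 1 the dish difference at steady state also passed for Trem2, at 0.24 at an adjusted p of 0.0141. Without single libraries the LPS response on TC dishes differed for further genes, by 0.21 at an adjusted p of 0.0169 for Trem2 and 0.26 at an adjusted p of 0.00377 for Tyrobp without GM-TC replicate 1, and by -0.41 at an adjusted p of 0.00753 for C1qa without GM-TC replicate 2. On noTC dishes Gas6 differed by -0.30 at an adjusted p of 0.0397 without GM-noTC-LPS replicate 1.

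In M the LPS response differed between the dishes for 1 of the 10 genes, Mertk, which rose more on noTC dishes (difference log2 fold change 0.51 ± 0.110 (SE), adjusted p = 0.00446), beside 3.11% higher and 7.48% lower of all genes. That difference uses the M-TC libraries that held heart muscle genes, whose part in it was not tested. In GM 0 of the 10 passed in edgeR with all libraries, 0 had an unadjusted p under 0.05 and 0 passed in DESeq2, beside 0.192% and 0.591% of all genes, and the largest value was that of Tyrobp (0.15 ± 0.0938, SE). Tyrobp passed at 0.28 at an adjusted p of 0.0208 without GM-TC replicate 1.

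The third TAM receptor, Tyro3, was low in M libraries. In GM it was 19.0 and 18.4 CPM on TC and 15.2 and 15.2 CPM on noTC dishes, and 17.3 and 16.7 and 12.5 and 12.6 CPM in the same cultures after LPS. The M-TC libraries had 3 and 5 counts and the M-noTC libraries 1 and 0. After LPS the M libraries held 1.38 and 1.22 CPM on TC and 1.28 and 2.30 CPM on noTC dishes. Every M library was thus below every GM library, and no fold is given against counts this low.

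Other genes of the pathway were read from 9 lists, counted under TMM with the counts by library totals beside them. Of all genes, 30.7% were higher and 31.4% lower in M on noTC dishes at steady state under TMM, and 52.1% and 19.7% by library totals. On noTC dishes at steady state, M against GM, the list of phosphatidylserine receptors and integrins had 3 of 17 tested genes higher and 7 lower (median log2 fold change -0.04, beside 0 over all genes; 8 and 4 by library totals). Stab1, a scavenger receptor that binds phosphatidylserine, rose most (574 ± 19.1 CPM against 17.8 ± 0.684 CPM, log2 fold change 5.01 ± 0.0667 (SE), adjusted p = 1.36e-23). Of the soluble bridging and modulating proteins 1 of 7 was higher and 5 lower (median -1.35; 1 and 4 by library totals), with Fn1, which encodes fibronectin, at 9.69 ± 0.828 CPM against 1090.3 ± 22.2 CPM (log2 fold change -6.82 ± 0.133 (SE), adjusted p = 4.9e-21; -7.40 after the subtraction from noTC libraries) and Edil3, an integrin bridge related to Mfge8, at 4.27 ± 0.819 CPM against 1.48 ± 0.157 CPM. Of the engulfment machinery 7 of 13 were higher and 2 lower (median 0.18; 10 and 1 by library totals), led by Elmo1, a Rac activator with its DOCK partners (124 ± 0.0335 CPM against 47.7 ± 3.499 CPM, log2 fold change 1.37 ± 0.0576 (SE), adjusted p = 3.12e-15), with Elmo2 lowest (70.0 ± 2.55 CPM against 99.4 ± 5.46 CPM). Of LC3-associated phagocytosis 4 of 16 were higher and 10 lower (median -0.44; 6 and 8 by library totals), with the oxidase gene Cybb at 1073 ± 41.9 CPM against 2244 ± 7.02 CPM and Uvrag, a partner of the lipid kinase VPS34, at 65.8 ± 0.361 CPM against 47.6 ± 0.869 CPM.

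Of the genes of TREM2 and DAP12 signalling 6 of 19 were higher and 9 lower (median -0.34; 8 and 6 by library totals). Apoe, a lipid carrier and TREM2 ligand, rose (879 ± 74.1 CPM against 239 ± 4.08 CPM, log2 fold change 1.88 ± 0.0656 (SE), adjusted p = 1.22e-16), and Clu, which encodes clusterin, another TREM2 ligand, was low (0.171 ± 0.0444 CPM against 4.59 ± 0.148 CPM). The partners of C1q in the classical pathway included 3 of 6 lower genes and 3 not past the threshold (median -0.95; 2 lower and 4 not past it by library totals), from C1qbp, a C1q-binding protein, at 38.2 ± 0.0567 CPM against 44.2 ± 0.198 CPM (log2 fold change -0.21 under TMM and 0.080 by library totals) to the protease gene C1ra at 5.55 ± 0.0625 CPM against 15.995 ± 1.58 CPM (log2 fold change -1.53 ± 0.115 (SE), adjusted p = 1.01e-10) among those at 1 CPM or more; the third was the protease gene C1s1, under that level and named after its values were seen (log2 fold change -3.66, adjusted p = 0.00122). Of the do-not-eat signals 2 of 5 were higher and 3 lower under both scalings (median -0.85), with Cd47 at 188 ± 5.98 CPM against 148 ± 1.82 CPM and Siglecg at 3 counts in each M-noTC library against 3.63 and 2.66 CPM in GM-noTC. Of the nuclear receptors and Maf factors 5 of 11 were higher and 3 lower (median -0.01; 7 and 3 by library totals), with Maf, a transcription factor of resident macrophages, at 178 ± 12.2 CPM against 25.2 ± 2.45 CPM (log2 fold change 2.82 ± 0.0864 (SE), adjusted p = 1.22e-17) and Ppard, a lipid-sensing nuclear receptor, at 9.94 ± 0.00112 CPM against 36.1 ± 0.761 CPM. Of the genes that handle engulfed cargo 1 of 12 was higher and 8 lower (median -0.31; 3 and 5 by library totals), among them the cholesterol exporter Abcg1 (135 ± 5.08 CPM against 559.8 ± 1.99 CPM, log2 fold change -2.05 ± 0.0567 (SE), adjusted p = 1.88e-18), while the lysosomal lipase gene Lipa was at 1530.0 ± 4.71 CPM against 1198 ± 22.6 CPM.

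After LPS in M on noTC dishes, 6 of 7 soluble bridging and modulating proteins rose under TMM and 1 did not pass (median 0.92), while 4 rose and 1 fell by library totals. Of all genes, 36.4% rose and 35.9% fell under TMM, and 16.1% and 68.5% by library totals. Among the proteins of the list that rose under both scalings was Ptx3, a pentraxin, at 38.9 ± 4.30 CPM against 2.36 ± 0.420 CPM (log2 fold change 4.07 ± 0.121 (SE), adjusted p = 2.85e-18). Its low level before LPS depended on the subtraction from noTC libraries, after which the log2 fold change was 6.98. Lgals3, which encodes galectin-3, was the lowest of those that rose, at 0.22, and turned to -0.51 by library totals. Under TMM the same list had 6 genes higher in M on TC dishes and 4 and 5 in GM on TC and noTC dishes (5, 4 and 4 by library totals, which put 2, 3 and 2 lower). Of all genes, 37.6%, 32.8% and 33.6% rose in the same order under TMM. By library totals 16.3%, 17.2% and 16.4% rose and 69.1%, 62.7% and 63.8% fell. Of the classical partners of C1q 4 of 6 rose and 2 did not pass (median 1.96; 2 and 1 higher and lower by library totals), with C1ra at 23.5 ± 0.366 CPM against 5.55 ± 0.0625 CPM. The phosphatidylserine receptors and integrins had 6 of 17 higher and 8 lower (median -0.21; 4 and 13 by library totals), and Cd300lb, an activating receptor that pairs with DAP12, fell most (4.61 ± 0.451 CPM against 229 ± 1.78 CPM, log2 fold change -5.63 ± 0.0990 (SE), adjusted p = 2.56e-22). Of TREM2 and DAP12 signalling 9 of 19 rose and 3 fell (median 0.60; 7 and 9 by library totals), with Malt1, a signalling protease, at 841 ± 9.32 CPM against 51.4 ± 0.464 CPM and Inpp5d, a lipid phosphatase that restrains this signalling, at 36.6 ± 2.53 CPM against 179 ± 0.286 CPM. Of the do-not-eat signals 4 of 5 rose and 1 fell under both scalings (median 1.64), the latter Sirpa, the receptor of CD47 (961 ± 54.5 CPM against 1331 ± 25.2 CPM), while Pilra, an inhibitory receptor, was at 128 ± 2.48 CPM against 12.7 ± 0.536 CPM. Nuclear receptors and Maf factors had 5 of 11 higher and 5 lower (median -0.24; 3 and 7 by library totals), with Irf8, an interferon regulatory factor, at 371 ± 11.3 CPM against 89.9 ± 2.73 CPM. The engulfment machinery had 9 of 13 higher and 3 lower (median 0.30; 3 and 9 by library totals), LC3-associated phagocytosis 7 of 16 higher and 9 lower (median -0.14; 2 and 12), and cargo handling 4 of 12 in each direction (median -0.05; 0 and 11). The adaptor gene Crkl went to 191 ± 6.95 CPM against 77.4 ± 1.49 CPM and Arhgef7, a Rac exchange factor, to 52.1 ± 0.550 CPM against 181 ± 4.38 CPM. Cybb went to 3239 ± 117 CPM against 1073 ± 41.9 CPM and Rubcn, which encodes the LC3-associated phagocytosis factor Rubicon, to 19.1 ± 0.707 CPM against 41.1 ± 2.64 CPM. Of the cargo genes, Lamp2 was at 0.68 under TMM and -0.05 by library totals, and Abcg1 at 76.1 ± 3.72 CPM against 135 ± 5.08 CPM.

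Among genes outside the list at a mean of 10 CPM or more, those whose 8 group means of log2 CPM followed C1qa most closely were Apoe (Pearson r 0.993), Tmem176b (0.988) and Arhgap30 (0.987). Mertk was followed by Stxbp2 (0.983), Abhd13 (0.982) and Atp5j (0.98), Axl by F10 (0.996), Ddhd1 (0.996) and Mfap3l (0.995), and Trem2 by Hpgds (0.993), Tesk1 (0.991) and Atf6 (0.991). These values describe 8 groups whose libraries share scaling, and high values are common where growth factor and LPS divide the groups. Gas6 and Mfge8 had the most negative r among the 45 pairs of members, at -0.992.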

How the data were processed

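RNA-seq of 16 libraries in 8 groups of 2 was used. Per the submitters' processing notes the reads were handled with fastp 0.18.0, Bowtie2 2.2.8, HISAT2, StringTie 1.3.1 and RSEM; the genome build is not given in the sources used here. The deposited table holds the expected counts per gene that the authors estimated with RSEM, without normalization, and in each library 6.56% to 8.19% of genes had a value that was not whole. FPKM values were not used here. The preparation named in the methods does not state strand.

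Expected counts were rounded. Genes that passed edgeR's filterByExpr (12514 of 16756 with a count) were scaled with TMM and tested by edgeR's quasi-likelihood test over all 16 libraries and 8 group means (edgeR 4.0.16, limma 3.58.1, R 4.3.3), with 12 comparisons and 6 differences of effects, at a Benjamini-Hochberg adjusted p under 0.05 over all genes tested. The SE of a log2 fold change is the one its F statistic implies. The common dispersion gave a biological coefficient of variation of 4.75%, and 3 counts corresponded to 0.0954 to 0.171 CPM, which covers counting error only. Replicates of a group differed by more than sampling noise (chi-square per degree of freedom 1.90 to 12.4, highest in GM-TC). Levels per kilobase use the longest principal transcript in GENCODE for GRCm38. The test was checked on simulated counts with changes in M-noTC alone. They held no shifts by LPS or growth factor, so the check does not cover those comparisons.

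The members and lists were chosen with earlier results of these data known. Beside the 10 members, the text names the highest and lowest called gene of each pathway list at 1 CPM or more, in M against GM and after LPS in M on noTC dishes, and the 3 genes most like C1qa, Mertk, Axl and Trem2; Tyro3 is given in all groups. The result of 1 gene that this rule names is not reported here. Alternatives were DESeq2's size factors, library totals alone, no filter, DESeq2 1.42.0, a fit of only the libraries compared, a replicate block, taking a small share of the mean of the other libraries off the noTC libraries at steady state (the subtraction), and leaving out each library in turn.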

Additional observations from a re-analysis of the deposited data

Results flagged for a closer look

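The values below are log2 differences between 2 effects of the same kind, each tested as an interaction in edgeR's quasi-likelihood fit. Each was past the threshold under TMM with all libraries. For the dish (noTC against TC) at steady state, M differed from GM by -1.10 (adjusted p = 3.97e-07) for Mertk, -1.10 (adjusted p = 2.56e-06) for C1qa, -0.55 (adjusted p = 0.000474) for C1qb, -0.70 (adjusted p = 7.79e-05) for C1qc and 0.75 (adjusted p = 3.05e-07) for Mfge8. After LPS the same difference was -0.49 (adjusted p = 0.00291) for Mertk, -1.24 (adjusted p = 5.46e-07) for C1qa, -0.74 (adjusted p = 1.47e-05) for C1qb, -0.75 (adjusted p = 3.23e-05) for C1qc and 0.58 (adjusted p = 1.19e-05) for Mfge8.

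For the response to LPS on TC dishes, M differed from GM by 0.56 (adjusted p = 3.2e-06) for Axl, 0.44 (adjusted p = 3.8e-05) for Mfge8, 0.27 (adjusted p = 0.0297) for C1qb and -0.33 (adjusted p = 0.0137) for Mertk. On noTC dishes it differed by 0.58 (adjusted p = 1.91e-06) for Axl, 0.29 (adjusted p = 0.041) for Mertk, 0.27 (adjusted p = 0.00497) for Mfge8, 0.23 (adjusted p = 0.0327) for Pros1 and -0.38 (adjusted p = 0.0175) for C1qa. By library totals Mfge8 (0.10 on TC and 0.05 on noTC dishes) and C1qb on TC dishes (-0.081) did not pass. Mertk (0.07) and Pros1 (0.02) on noTC dishes did not pass either. The calls of Mertk, C1qb, Pros1 and C1qa between M and GM also depended on single libraries, as described above. Within M, the response of Mertk to LPS was larger on noTC than on TC dishes by 0.51 (adjusted p = 0.00446).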

How the results depend on the processing

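With each group at 2 libraries, a fit without 1 library assumes that the lone library left varies like the other groups. The comparisons of M with GM kept all 10 directions and calls under every alternative run. The replicate block changed the call of 0 of 180 values of the members, with 7 members called after LPS in GM-noTC as without it. The deviations of same-numbered libraries correlated at -0.07 to 0.06 in the 12 comparisons. Such values cannot show whether same-numbered libraries share a source, which the labels do not give. DESeq2's size factors changed 0, DESeq2 lost 1 call, the subtraction from noTC libraries lost 1, no filter lost 2 and added 3, the libraries of the comparison alone lost 2 and added 4, and leaving out each library in turn lost 47 and added 14 of 960 values. Among values past the threshold under at least 1 of both scalings, library totals alone turned 22, of which 10 passed under both in opposite directions. In all, library totals lost 8 calls and added 22. Under library totals the LPS values turned to -0.14 (C1qa), -0.20 (C1qb) and -0.21 (C1qc) in GM-TC. In GM-noTC they turned to -0.16 (C1qa), -0.17 (C1qb), -0.31 (C1qc) and -0.45 (Tyrobp). In M-TC they turned to -0.13 (Mertk), -0.48 (Mfge8), -0.73 (C1qa), -0.28 (C1qb), -0.51 (C1qc) and -0.76 (Tyrobp), and in M-noTC to -0.65 (Pros1), -0.51 (Mfge8), -0.32 (C1qb), -0.54 (C1qc) and -0.62 (Tyrobp). The difference of the LPS response between M and GM on TC dishes turned to -0.29 (Pros1), -0.081 (C1qb), -0.31 (C1qc) and -0.18 (Trem2), and 7 members were called there in place of 4. There Gas6 (-0.50, adjusted p = 0.000461) and C1qa (-0.59, adjusted p = 0.000351) passed by library totals and not under TMM. The C1qa difference on TC dishes also passed without a filter (-0.25, adjusted p = 0.0492). On noTC dishes that difference passed by library totals alone for Gas6 (-0.35, adjusted p = 0.015) and Trem2 (-0.30, adjusted p = 0.00243), where 30.0% of all genes were lower. These shifts follow the median of all genes, which library totals move in the same direction. Members called for the dish in GM went from 1 to 2 without a filter, both at steady state and after LPS, and to 2 after LPS with the libraries of the comparison alone; the cause was not tested. Leaving out each library gave 4 to 6 members after LPS in GM-noTC (7 with all), 1 to 3 for the dish in GM at steady state (1 with all), 2 to 4 for the LPS response of M against GM on noTC dishes (5 with all) and 0 to 1 for the LPS response by dish in GM (0 with all). Among all genes, calls for the dish in GM at steady state went from 944 to 329 with the libraries of the comparison alone and to 2007 without GM-TC replicate 1 (419 and 472 without GM-noTC replicate 1 or 2). After LPS they went from 351 to 557 without a filter, 529 with the libraries of the comparison alone and 135 to 207 without 1 library. Calls for the dish in M went from 3398 to 2110 to 2197 at steady state without M-TC replicate 1, M-TC replicate 2 or M-noTC replicate 1, and from 2917 to 1925 and 1697 after LPS without M-TC-LPS replicate 1 or M-noTC-LPS replicate 1. The LPS response by dish had 98 calls in GM, 227 without a filter, 61 with the libraries of the comparison alone, 17 after subtraction and 50 to 533 without 1 library, and in M 1325 and down to 716. The dish difference between M and GM had 1404 calls at steady state and 851 to 2258 without 1 library, and 1324 after LPS and down to 842. The lowest group mean of a member was 18.6 CPM under TMM and 14.7 CPM by library totals (Gas6 in GM-noTC-LPS). The latter is above the 0.0954 to 0.171 CPM by library totals that 3 counts give.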
